A study of Mus musculus with 12 samples.

Results

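Cholesterol synthesis, uptake and export in the striatum of Huntington's disease model mice was followed through 31 genes, of which 28 had a probe set of their own on the array, out of 18193 genes measured in this way. The 31 were chosen as a pathway: 19 enzymes of cholesterol and isoprenoid synthesis, 6 regulators, 2 genes of sterol transport and storage (Stard4 and Soat1), 3 of export (Abca1, Abcg1 and Apoe) and 1 of turnover (Cyp46a1). Each gene was read from its brightest probe set, that with the highest 12-array mean out of those assigned to no other gene. Acat2, Nr1h2 and Soat1 were not paired with a probe set in the table used, so their expression was not analysed here, although their promoters were searched. For expression, 18 enzymes, 5 regulators and Stard4 remained in those classes. Uptake is represented only through the regulators that control it.

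Striatal RNA from 12 C57BL/6 mice was hybridised to Affymetrix mouse genome arrays, 1 array and 1 mouse at a time. The striatum is a forebrain nucleus built mostly of inhibitory projection neurons, which degenerate in Huntington's disease. The mutant mice (Q92, HdhQ92/Q92) carry 92 CAG repeats, taken from the first exon of the human HD gene, in both copies of Htt (older symbol Hdh), under the control of the mouse gene itself and therefore in every cell that uses it. There were 4 groups of 3 mice: wild type (wt) at 3 months (100 to 103 days, 1 female and 2 males), Q92 at 3 months (100 to 103 days, 2 females and 1 male), wild type at 18 months (596 to 604 days, 2 females and 1 male) and Q92 at 18 months (567 to 596 days, 2 females and 1 male). Apart from the knock-in, the labels name no allele or treatment in any group. Mice are named by group and animal number, as in Q92_18m_66.

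Brain cholesterol is made locally, because lipoproteins of the blood do not cross the blood-brain barrier. Acetyl units are joined into mevalonate, then into isoprenoids, squalene and lanosterol, and lanosterol is trimmed to cholesterol. When membranes are poor in sterol, the carrier protein Scap escorts the SREBP transcription factors to the Golgi apparatus, where they are cut free to switch on the synthesis genes, and Insig proteins hold this step back when sterol is plentiful. Oligodendrocytes use cholesterol for myelin, astrocytes ship it to neurons on Apoe-bearing particles loaded by the pumps Abca1 and Abcg1, and neurons dispose of it through the hydroxylase Cyp46a1.

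Values are log2 signals, one per mouse, and differences are tested with limma over all probe sets at a Benjamini-Hochberg adjusted p of 0.05. Correlations between arrays averaged 0.987 to 0.992, and the arrays that stood lowest were wt_3m_467 and Q92_18m_66. Markers of projection neurons, the cells that define the labelled tissue, were present in every mouse, with list means of 10.22 to 10.64 in the 9 mice other than the old Q92 group and 9.11 to 9.74 in that group. Q92_18m_66 had the lowest projection neuron mean and low cortical neuron markers (-0.60 relative to the mean of the 12 mice), while Q92_18m_11 and Q92_18m_25 had high ones (0.99 and 0.92). The wild-type mice at 18 months lay between -0.21 and 0.17 on the cortical list. Thalamic neuron markers were at 1.04 in Q92_18m_66, the highest of the 12 mice, and at -0.85 in Q92_18m_11 and -0.62 in Q92_18m_25. On that list the wild-type mice at 18 months ranged from -0.54 to 0.84. Several cholesterol genes separated Q92_18m_66 from the other old Q92 mice, and the main ones are given with and without it.

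None of the 28 genes passed the threshold in Q92 against wild type at 18 months, where 0.0533% of all probe sets did. Their log2 differences ran from -0.43 (Cyp46a1) to 0.35 (Fdps). For 22 of the 28 the 95% interval lay within 0.5 of zero on the log2 scale, a 1.41-fold change in either direction. The same held for 14491 of the 18193 genes. An unadjusted p under 0.05 was reached by 3 of the 28 (Fdps, Tm7sf2 and Cyp46a1), against 8.03% of all genes. Groups did not overlap, with all Q92 mice higher, for 2 of the 28 (Fdps and Ebp), against 6.50% of genes, and with all Q92 mice lower for 2 (Cyp46a1 and Dhcr7), against 7.51%. These shares are close to the background.

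The 18 synthesis enzymes had a median log2 difference of 0.08 at 18 months, beside -0.00136 over 1 probe set per gene and 0.00547 over all probe sets. Means were higher in Q92 mice for 14 of the 18, against 49.6% of all genes. At 3 months the median was 0.03, with higher means for 10 of 18, against 42.6% of genes. The difference between the genotype differences at the 2 ages (18 minus 3 months) had a median of 0.06 over the enzymes, beside 0.02 over all genes, and was positive for 13 of 18, against 54.3% of genes. This direction was not stable: the median was -0.015 with 8 of 18 positive when the cortical marker mean was a covariate, -0.044 with 6 of 18 when the oligodendrocyte marker mean was, and 0.0080 without Q92_18m_25. In this interaction 0 of the 28 members passed in limma, against 0% of all probe sets, and 4 of 28 (Fdps, Ggps1, Tm7sf2 and Cyp46a1) reached an unadjusted p under 0.05, against 5.80% of genes. Members of a pathway share their regulators and the same 12 arrays, so the count is a description, and no test was made of the list.

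**Figure D1:**
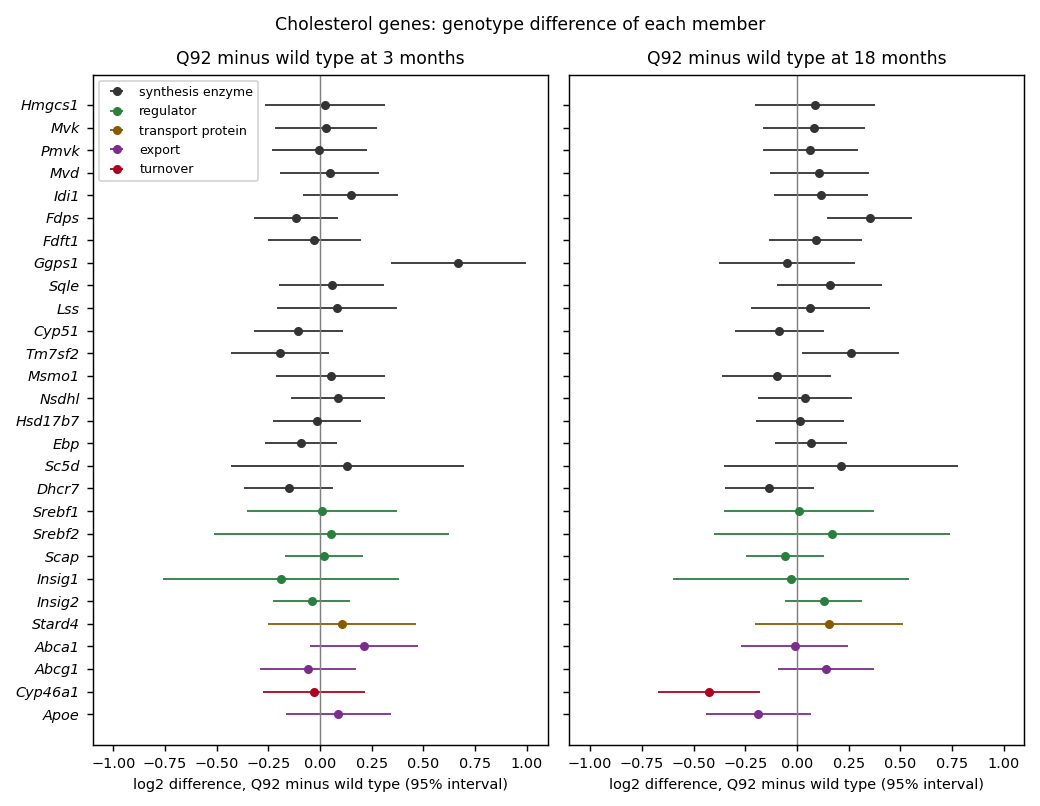
Log2 difference of each of the 28 measured genes, Q92 minus wild type, at 3 months (left) and 18 months (right). Points are the fitted differences of the brightest probe set, bars are 95% intervals from limma on 12 arrays, and colours mark the role of the gene; most intervals cross zero, and the ones that do not are Ggps1 at 3 months and Fdps, Tm7sf2 and Cyp46a1 at 18 months.

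Among the enzymes that lead to mevalonate and the isoprenoids, Hmgcs1, which condenses acetyl units into HMG-CoA ahead of the step that statins block, read 10.34, 10.34 and 10.27 in wild-type and 10.58, 10.54 and 10.09 in Q92 mice at 18 months. At 3 months it read 10.41, 10.42 and 10.25 in wild type and 10.36, 10.21 and 10.57 in Q92. The groups overlapped at both ages, and Q92_18m_66 had the lowest value of all 12 mice. The log2 difference was 0.09 at 18 months (SE 0.13, adjusted p = 0.939) and 0.02 at 3 months (adjusted p = 1.00). At 18 months it was 0.24 without Q92_18m_66, 0.02 without Q92_18m_25 and -0.000263 without Q92_18m_11. The other 4 Hmgcs1 probe sets differed by -0.11 to 0.02 at 18 months, so that 3 of the 5 had a lower mean in Q92 mice. The -0.11 came from a dim probe set, at 3.35 to 4.03 in the 12 mice. In the brighter ones with a lower mean, Q92_18m_66 again had the lowest value of the 12 mice (9.40 and 8.86).

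The promoter of Hmgcs1 is shown because among the 26 members with a promoter sequence it was the one with a match to the sterol element that SREBP factors bind, searched as TCACNCCAC on either strand from 250 bases before to 50 bases after the gene's start. That motif was found for 1 of these 26 and for 1.44% of 27025 genes. With 1 letter open (TCACNCNAC) it was also found in Nsdhl, which gave 2 of 26 members, against 3.15% of genes. Fdps, Fdft1, Sqle, Stard4 and Abcg1 were not searched, and the 26 included Acat2, Nr1h2 and Soat1, which had no expression value. The NF-Y box CCAAT, a motif of SREBP target promoters, was present in 15 of 16 synthesis enzymes and in 6 of the 10 other members. It was present in 41.1% of genes. The Sp1 box GGGCGG was in 14 of 16 and 8 of 10, against 38.2%. A gene with several promoter windows counted if any of them matched. By window the NF-Y box was in 15 of 19 for the enzymes and 7 of 17 for the others, against 37.4% of windows. The Sp1 box was in 15 of 19 and 11 of 17 windows, against 35.7%. The enzyme without an NF-Y box was Acat2. The LXR direct repeat was in none of the 26 and in 0.0148% of genes. Cyp46a1, the gene with the largest difference at 18 months, is shown beside the other promoters and has 1 NF-Y box and no sterol element. Capitals mark the sterol element in either form and the NF-Y box on either strand (ATTGG is CCAAT read from the other strand), and these matches do not overlap. Sequences are from RefSeq, build GRCm38.p6, at chr13:119690101-119690400 (Hmgcs1), chrX:72918271-72918570 (Nsdhl) and chr12:108334066-108334365 (Cyp46a1), all on the plus strand.
Hmgcs1: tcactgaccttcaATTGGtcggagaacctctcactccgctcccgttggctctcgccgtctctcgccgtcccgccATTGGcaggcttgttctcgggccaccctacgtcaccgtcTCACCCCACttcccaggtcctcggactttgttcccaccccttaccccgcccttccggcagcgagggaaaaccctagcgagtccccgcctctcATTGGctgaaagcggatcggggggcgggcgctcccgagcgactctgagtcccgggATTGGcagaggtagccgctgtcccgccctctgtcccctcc
Nsdhl: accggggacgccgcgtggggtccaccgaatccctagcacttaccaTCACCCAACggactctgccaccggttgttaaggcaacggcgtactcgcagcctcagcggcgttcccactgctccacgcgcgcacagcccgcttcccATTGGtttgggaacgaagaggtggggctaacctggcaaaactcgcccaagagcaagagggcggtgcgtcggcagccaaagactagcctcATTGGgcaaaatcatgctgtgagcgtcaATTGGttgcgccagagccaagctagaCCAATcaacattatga
Cyp46a1: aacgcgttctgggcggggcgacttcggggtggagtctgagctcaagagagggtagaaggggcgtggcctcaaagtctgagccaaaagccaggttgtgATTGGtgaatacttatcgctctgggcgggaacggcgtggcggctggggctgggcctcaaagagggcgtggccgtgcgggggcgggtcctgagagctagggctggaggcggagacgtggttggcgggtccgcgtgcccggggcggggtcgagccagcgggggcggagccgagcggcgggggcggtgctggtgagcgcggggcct
The sterol element of Hmgcs1 begins 137 bases before the start, and its 4 NF-Y boxes begin 237, 176 and 45 bases before and 10 bases after it. The relaxed match of Nsdhl begins 205 bases before the start. A match to letters is no evidence of binding, and Hmgcs1 and Nsdhl did not pass in any comparison.

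Fdps makes farnesyl diphosphate, the branch point from which squalene, dolichol and the lipid anchors of small GTPases are drawn. It read 8.20, 8.16 and 7.97 in wild-type and 8.54, 8.41 and 8.44 in Q92 mice at 18 months. At 3 months the values were 8.32, 8.08 and 8.21 in wild type and 8.11, 8.06 and 8.09 in Q92. All old Q92 mice thus lay above all old wild-type mice, whereas the young groups overlapped. The log2 difference was 0.35 at 18 months (SE 0.09, 95% interval 0.15 to 0.56, adjusted p = 0.282) and -0.12 at 3 months (SE 0.09, adjusted p = 1.00). The genotype difference was 0.47 larger at 18 than at 3 months on the log2 scale (SE 0.13, adjusted p = 0.900), which did not pass. A second, dim Fdps probe set (mean 2.72) differed by -0.11 at 18 months, and the mean over both was 0.12 (adjusted p = 0.725). Without Q92_18m_66 the Fdps difference was 0.36, and leaving out single mice put it at 0.282 to 0.398. With age in days as a block it was 0.47. That fit rests on the mice of 596 days, where Q92_18m_11, the highest of the old Q92 mice (8.54), was the only Q92 mouse.

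Ggps1 lies on a branch, making geranylgeranyl diphosphate, a lipid anchor for membrane proteins, rather than sterol. It had the largest difference of all members at 3 months. Its brightest probe set read 6.60, 6.86 and 6.82 in wild-type and 7.15, 7.67 and 7.46 in Q92 mice, with no overlap. The old mice read 7.58, 7.71 and 7.27 in wild type and 7.37, 7.39 and 7.66 in Q92, so the young wild-type mice stood below the other 9 mice. Genotypes differed by 0.67 at 3 months on the log2 scale (SE 0.15, 95% interval 0.34 to 0.99, adjusted p = 1.00) and -0.05 at 18 months (adjusted p = 0.977). The age difference in wild type was 0.76 (adjusted p = 0.145) and that in Q92 was 0.05 (adjusted p = 0.948). The interaction of genotype and age, -0.72 (SE 0.21), had an adjusted p of 0.913. The other 3 Ggps1 probe sets differed by 0.07, 0.11 and 0.15 at 3 months, and the mean of all 4 by 0.25 (adjusted p = 1.00). They also differed by only 0.15 to 0.17 with age in wild type. The size of the Ggps1 value therefore rested on 1 of 4 probe sets.

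**Figure D2:**
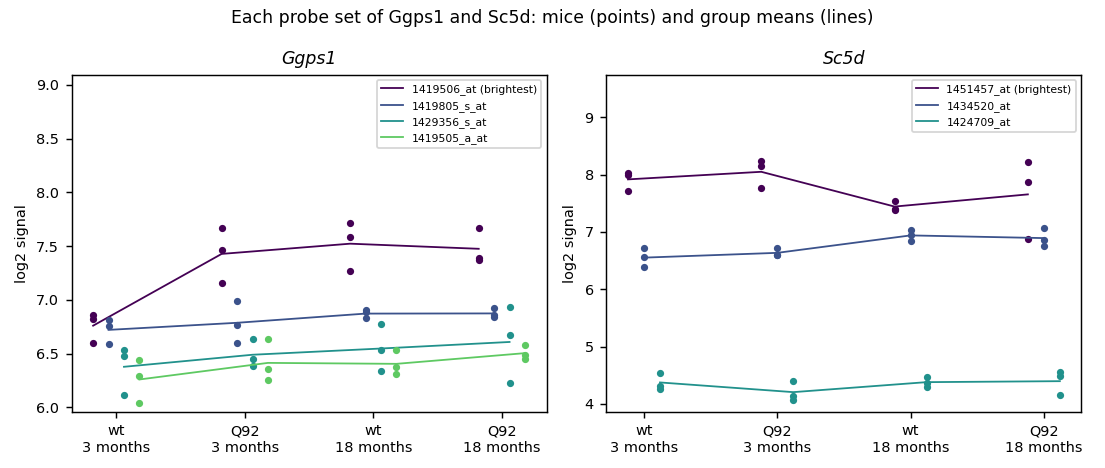
Log2 signal of each probe set of Ggps1 (left) and Sc5d (right) in the 4 groups; points are mice, lines join group means, and the brightest probe set is named in the key. The brightest Ggps1 probe set is low in the 3 young wild-type mice alone and the other 3 stay nearly level, while the 2 brighter Sc5d probe sets differ in opposite directions between 3 and 18 months.

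The other enzymes up to squalene had small differences. At 18 months the log2 differences were 0.08 for the mevalonate kinase Mvk, 0.06 for the phosphomevalonate kinase Pmvk, 0.11 for the decarboxylase Mvd and 0.12 for the isomerase Idi1. Fdft1, the squalene synthase, differed by 0.09 and Sqle, the squalene epoxidase that is the second rate-limiting enzyme, by 0.16. Adjusted p ran from 0.810 (Sqle) to 0.946 (Pmvk). At 3 months the same 6 genes differed by -0.03 (Fdft1) to 0.15 (Idi1). The 3 other Fdft1 probe sets gave -0.08 to 0.18 at 18 months.

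Of the enzymes that turn squalene epoxide into cholesterol, Tm7sf2, a sterol reductase of the endoplasmic reticulum and the nuclear envelope, had the largest difference at 18 months. It read 6.36, 6.23 and 6.14 in wild-type and 6.56, 6.32 and 6.63 in Q92 mice. Young mice read 6.45, 6.45 and 6.21 in wild type and 6.14, 6.14 and 6.24 in Q92. Wild-type and Q92 mice overlapped at both ages, through wt_18m_9 and Q92_18m_25 in the old groups and wt_3m_467 and Q92_3m_466 in the young. The log2 difference was 0.26 at 18 months (SE 0.11, 95% interval 0.03 to 0.50, adjusted p = 0.577) and -0.19 at 3 months (adjusted p = 1.00). The interaction was 0.45 (SE 0.15, adjusted p = 0.946).

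Sc5d, the sterol desaturase, varied most between the old Q92 mice. It read 7.40, 7.55 and 7.38 in wild-type and 7.87, 8.22 and 6.88 in Q92 mice at 18 months, so Q92_18m_66 lay below and the other two above all wild types. Young mice read 8.04, 8.00 and 7.71 in wild type and 8.15, 7.76 and 8.24 in Q92. The log2 difference at 18 months was 0.21 (SE 0.26, adjusted p = 0.916), 0.60 without Q92_18m_66 and -0.07 without Q92_18m_25. With the mean of the cortical neuron markers as a covariate it was -0.08. Those markers were high in Q92_18m_11 and Q92_18m_25 and low in Q92_18m_66, as given above. That covariate was chosen after seeing the data, and the part of cortical tissue in the Sc5d value was not tested. The next brightest Sc5d probe set read 7.03, 6.84 and 6.95 in old wild-type and 6.86, 7.07 and 6.75 in old Q92 mice. Its groups overlapped, as did those of the dimmest. The size of the spread between the old Q92 mice therefore rested on 1 of 3 probe sets.

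Differences at 18 months were 0.07 for the cyclase Lss, which makes lanosterol, -0.09 for the demethylase Cyp51, -0.10 for the methyl oxidase Msmo1, 0.04 for the dehydrogenase Nsdhl, 0.02 for the reductase Hsd17b7 and 0.07 for the isomerase Ebp. Dhcr7, which closes one route to cholesterol, differed by -0.13, with Q92 values of 7.36, 7.40 and 7.34 all below wild-type values of 7.57, 7.47 and 7.46 (adjusted p = 0.814). At 3 months it differed by -0.15 with overlapping groups. Ebp did not overlap at 18 months either, but the lowest Q92 value (6.92) and the highest wild-type value (6.91) were close.

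**Figure D3:**
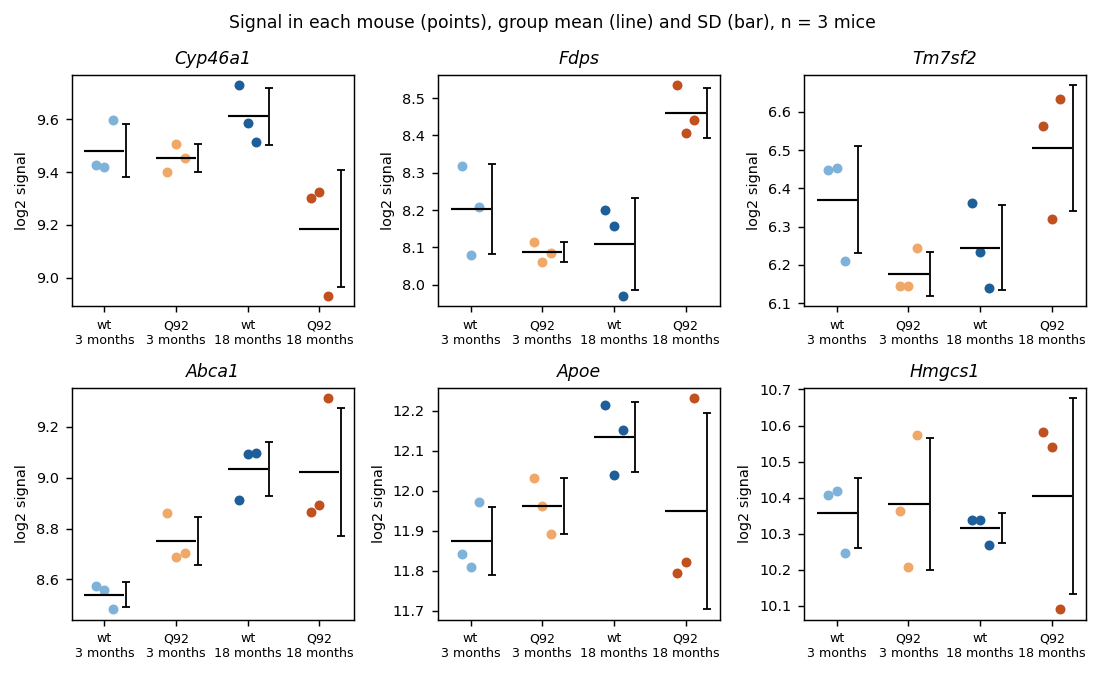
Log2 signal in each mouse (points), with the group mean (line) and SD (bar), for 6 genes in the 4 groups of 3 mice; each panel has its own vertical scale. Old Q92 mice lie below old wild-type mice for Cyp46a1 and above them for Fdps, and Q92_18m_66 stands apart from the other old Q92 mice for Apoe, Abca1, Hmgcs1 and Cyp46a1.

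The regulators showed no difference past the threshold, and 3 of 5 had a higher mean in Q92 mice at 18 months, at a median of 0.01. Srebf2, the SREBP gene most tied to cholesterol synthesis, read 8.59, 7.21 and 8.36 in wild-type and 8.34, 8.33 and 8.00 in Q92 mice at 18 months. Young mice read 8.35, 8.16 and 8.26 in wild type and 8.24, 8.35 and 8.35 in Q92. One old wild-type mouse, wt_18m_12, stood more than 1 log2 unit below its group. Genotypes differed by 0.17 with it on the log2 scale (SE 0.26, adjusted p = 0.941) and -0.25 without it. The other Srebf2 probe set gave -0.04 with wt_18m_12 included. That mouse was low there too, at 6.31 beside 7.44 and 7.28 in the other old wild-type mice. Srebf1, which drives fatty acid synthesis more than cholesterol, differed by 0.01 at both ages, and by -0.16 at 18 months without Q92_18m_66. Scap differed by -0.06, Insig1, itself an SREBP target, by -0.03, and Insig2 by 0.13 at 18 months. Insig1 varied widely, from 5.33 to 6.48 in the 3 young wild-type mice, and its interval at 18 months ran from -0.60 to 0.54. Stard4, a carrier that moves sterol between membranes and is switched on by SREBP factors, read 7.09, 7.25 and 7.29 in wild-type and 7.63, 7.48 and 6.98 in Q92 mice at 18 months. The groups overlapped, with a log2 difference of 0.15 (SE 0.17, adjusted p = 0.900), and of 0.34 without Q92_18m_66 and 0.02 without Q92_18m_11. Its 2 dimmer probe sets gave -0.04 and 0.44.

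Cyp46a1 had the largest difference at 18 months. It encodes the cholesterol 24-hydroxylase, an enzyme of neurons that makes the form in which cholesterol leaves the brain. It read 9.73, 9.59 and 9.52 in wild-type and 9.30, 9.32 and 8.93 in Q92 mice at 18 months. Young mice read 9.43, 9.42 and 9.60 in wild type and 9.40, 9.51 and 9.45 in Q92. The old groups did not overlap, the young groups did, and Q92_18m_66 was lowest of the 12. The mean was 1.34-fold lower in old Q92 mice, a log2 difference of -0.43 (SE 0.11, 95% interval -0.67 to -0.18, adjusted p = 0.284), which did not pass. At 3 months the difference was -0.03 (SE 0.11, adjusted p = 1.00), and the interaction was -0.40 (SE 0.16, adjusted p = 0.946).

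Projection neuron markers were lower in the same mice, with all 12 of 12 lower in old Q92 mice at a median of -0.92, 1 of them past the threshold, against a median of -0.02 at 3 months. Their mean relative to the 12 mice was -1.07 in Q92_18m_66, -0.63 in Q92_18m_11 and -0.44 in Q92_18m_25, and 0.11 to 0.26 in old wild-type mice. The part of these neurons in the Cyp46a1 value was not tested, and in whole tissue fewer cells of a type and less RNA per cell cannot be told apart. Without Q92_18m_66 the Cyp46a1 difference was -0.30 (adjusted p = 0.376), and with age in days as a block, which rests on the mice of 596 days (2 wild type, 1 Q92), it was -0.25 (adjusted p = 0.931). With the cortical marker mean as a covariate it was -0.51 (adjusted p = 0.111).

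The export genes gave no difference between genotypes past the threshold. Apoe, the main lipoprotein of the brain and mostly a product of astrocytes, read 12.21, 12.04 and 12.15 in wild-type and 11.79, 11.82 and 12.23 in Q92 mice at 18 months. At 3 months it read 11.84, 11.81 and 11.97 in wild type and 12.03, 11.96 and 11.89 in Q92. Q92_18m_66 was above every old wild-type mouse and the other old Q92 mice were below them all. The log2 difference was -0.19 (SE 0.12, adjusted p = 0.755) and -0.33 without Q92_18m_66. Astrocyte markers ran the same way in these 3 mice, at 0.08 in Q92_18m_66 and at -0.22 and -0.21 in Q92_18m_11 and Q92_18m_25, and 0 of the 10 had a higher mean in old Q92 mice. The order differed in old wild-type mice, where wt_18m_9 had the highest Apoe value and the lowest astrocyte mean. That mean was 0.03, against 0.15 in wt_18m_12 and 0.16 in wt_18m_17. Microglia markers were at 0.48 in Q92_18m_66 and at -0.11 in both Q92_18m_11 and Q92_18m_25. The part of astrocyte or microglia content in the Apoe value was not tested.

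Abca1, the pump that loads cholesterol onto Apoe, read 8.91, 9.09 and 9.10 in wild-type and 8.87, 8.89 and 9.31 in Q92 mice at 18 months. The groups overlapped and differed by -0.01 (SE 0.12, adjusted p = 0.994), or by -0.16 without Q92_18m_66. Young mice read 8.57, 8.56 and 8.48 in wild type and 8.86, 8.69 and 8.70 in Q92, with every Q92 mouse above every wild type and 0.21 between the means (SE 0.12, adjusted p = 1.00). Its 2 other probe sets differed by 0.05 and 0.10 at 3 months. The partner pump Abcg1 differed by 0.14 at 18 months and -0.06 at 3 months. With the mean over its 2 probe sets the value at 18 months was 0.02. At 3 months 0 of the 28 members passed, against 0.0111% of all probe sets, and 1 of 28 (Ggps1) reached an unadjusted p under 0.05, against 2.27% of genes. Groups did not overlap for Ggps1 and Abca1, both higher in Q92, 2 of 28 against 2.30% of genes, and no member was lower without overlap, against 4.34%. For 24 of the 28, the 95% interval at 3 months lay within 0.5 of zero, against 15562 of the 18193 genes.

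The next question was how the pathway differed between 18 and 3 months within each genotype. No member passed in limma, against 0.0511% of probe sets in wild type and 0.206% in Q92. The comparisons share the young and old groups with those of genotype and are given side by side. In wild type, 5 of 28 members reached an unadjusted p under 0.05, against 11% of genes. In Q92 mice 8 of 28 did, against 12.4%. Old mice did not overlap young mice and were higher for 6 members in wild type, against 9.76% of genes, and for 7 in Q92, against 10.0%. They were lower for 1 member in wild type, against 8.81%, and for 2 in Q92 mice, against 7.52%.

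Abca1 had the largest age difference after Ggps1 in wild type, at 0.50 (SE 0.12, 95% interval 0.24 to 0.76, adjusted p = 0.214), and was at 0.27 in Q92 mice (SE 0.12, adjusted p = 0.446), with all old mice above all young mice in both genotypes. In Q92 mice the lowest old value (8.87) and the highest young value (8.86) were close. The dimmer Abca1 probe sets gave 0.22 and 0.50 in wild type and 0.18 and 0.39 in Q92, where both overlapped between ages. Apoe was at 0.26 in wild type, again without overlap (adjusted p = 0.464), and at -0.01 in Q92. Microglia markers, which belong to another Abca1-expressing cell type, had 6 of 7 higher in old wild-type mice, at a median of 0.40, and 3 of 7 higher in old Q92 mice, at -0.01. Their list means were 7.45 to 7.69 in young and 7.91 to 8.33 in old wild-type mice, and their part in the Abca1 and Apoe values was not tested.

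Sterol-making genes with higher means in old mice of both genotypes included Sqle, with 0.22 in wild type and 0.32 in Q92. They also included Lss, with 0.33 and 0.31. Neither overlapped between ages, but the highest young and lowest old values were close. For Sqle they were 7.96 and 7.98 in wild type and 7.99 and 8.01 in Q92. For Lss they were 6.56 and 6.57 in wild type and 6.50 and 6.55 in Q92. Without wt_3m_438 the wild-type value of Sqle was 0.13. The brightest Fdft1 probe set was at 0.15 and 0.26. The next brightest was nearly as bright and also had higher means in old mice of both genotypes. Its ages overlapped, through wt_3m_467 (8.97) and Q92_18m_66 (8.66). The mean of all 4 Fdft1 probe sets, which takes in dim ones that reached at most 4.71, was at -0.01 and 0.10. For Lss the dimmer probe sets gave -0.16 and -0.31 in wild type, so the mean over all 3 was -0.048, and without wt_3m_436 the brightest was at 0.19. Stard4 read 6.57, 7.09 and 6.81 in young wild-type mice and 7.07, 6.85 and 6.87 in young Q92 mice, and the age difference was 0.38 in wild type (SE 0.17, adjusted p = 0.451) and 0.43 in Q92 (SE 0.17, adjusted p = 0.374). Fdps was at -0.09 in wild type and 0.37 in Q92 mice (SE 0.09, adjusted p = 0.154), and Tm7sf2 at -0.13 and 0.33 (adjusted p = 0.281 in Q92). Cyp46a1 was at 0.13 in wild type and -0.27 in Q92 (adjusted p = 0.433), where no old mouse reached a young one. Without Q92_18m_66 the Q92 value was -0.14 for Cyp46a1 and 0.13 for Abca1. The brightest Sc5d probe set was lower in old mice, at -0.47 in wild type and -0.39 in Q92, but the next brightest was higher, at 0.39 (adjusted p = 0.283) and 0.26, and the dimmest gave 0.01 and 0.19. Without Q92_18m_66 the brightest was at -0.0063 in Q92, and without Q92_18m_25 at -0.68. Srebf1 was at 0.24 in both genotypes, with adjusted p of 0.631 and 0.679, but at 0.07 in Q92 without Q92_18m_66, 0.12 in Q92 without Q92_3m_440 and 0.12 in wild type without wt_18m_12. The median over the 18 enzymes was 0.03 in wild type (10 higher, against 47.3% of all genes) and 0.06 in Q92 (14 higher, against 51.9%).

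Synthesis enzymes as a list varied by less than the cell type markers between mice. Their mean relative to the 12 mice was 0.15 in Q92_18m_11 and 0.12 in Q92_18m_25 but -0.03 in Q92_18m_66. It lay between -0.05 and 0.04 in old wild-type mice, between -0.05 and 0.03 in young Q92 mice and between -0.07 and -0.05 in young wild-type mice. The old Q92 mice that were high were those with high cortical neuron markers and low oligodendrocyte markers (-0.31 in Q92_18m_11 and -0.06 in Q92_18m_25, against 0.03 to 0.14 in old wild-type mice). The 6 measured cortical markers included 5 with a higher mean in old Q92 mice, at a median of 0.45, and 1 of the 9 oligodendrocyte markers had a higher mean, at a median of -0.13. The part of either in the enzyme values was not tested beyond the fits given under the processing alternatives.

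**Figure D4:**
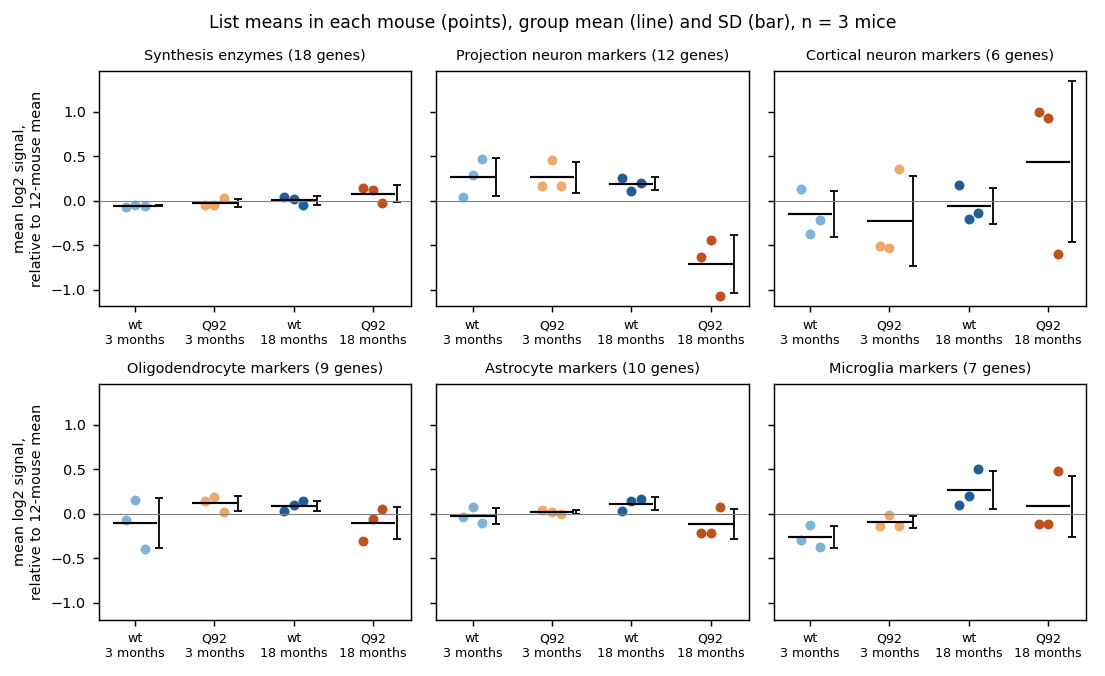
Mean log2 signal of the 18 synthesis enzymes and of 5 marker lists in each mouse, relative to the mean of the 12 mice; points are mice, lines are group means and bars are SD (n = 3). The enzymes span -0.07 to 0.15, while projection neuron markers reach -1.07 and cortical neuron markers range from -0.60 to 0.99 among the old Q92 mice.

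The wider sterol and lipid pathway was read from 52 further genes, of which 43 were measured. None passed in any of the 5 comparisons in either direction, against 0% to 0.206% of all probe sets. At 18 months 16 of the 43 had a higher mean in Q92 mice, against 49.6% of all genes, at a median of -0.03. At 3 months 29 of 43 did, against 42.6% of genes, at a median of 0.05. Mbtps1, the first protease that cuts SREBP proteins in the Golgi apparatus, read 8.83, 8.69 and 8.81 in old wild-type and 8.45, 8.44 and 8.35 in old Q92 mice, without overlap. Its log2 difference was -0.36 (SE 0.10, adjusted p = 0.287) and was -0.04 at 3 months. Aacs, which activates ketone-derived acetoacetate for lipid synthesis, differed by 0.26 (adjusted p = 0.548), and Lcat, which esterifies cholesterol in lipoproteins, by -0.41 (adjusted p = 0.504).

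At 3 months the smallest p belonged to Lbr, a sterol reductase that doubles as the lamin B receptor. It read 6.11, 5.96 and 5.90 in young wild-type and 6.32, 6.26 and 6.54 in young Q92 mice, a log2 difference of 0.39 (SE 0.12, adjusted p = 1.00), and its age difference in wild type was 0.62 (adjusted p = 0.145). The next were Cyp39a1, an oxysterol hydroxylase, at -0.24, and the phosphatidate phosphatase Lpin1, at 0.21. In the interaction the genes with the smallest p were Lbr (-0.47), Cyp39a1 (0.35) and Mbtps1 (-0.32), each with adjusted p = 0.946. In wild type with age they were Lbr, the cytochrome b5 reductase Cyb5r3 (0.27, adjusted p = 0.369) and the desaturase Scd1 (0.38, adjusted p = 0.293). In Q92 mice with age they were the malic enzyme Me1, which supplies NADPH for lipid synthesis (0.78, adjusted p = 0.211), Mbtps1 (-0.34, adjusted p = 0.223) and Mbtps2, the second SREBP protease (0.37, adjusted p = 0.250). Of the 13 SREBP-driven fatty acid genes, 6 had a higher mean in Q92 mice at 18 months, against 49.6% of all genes, at a median of -0.02.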

How the data were processed

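RNA of 12 striata was measured on 12 arrays. The authors deposited 1 log2 signal for each probe set and array. RMA and affy are named, without versions, in the submitters' processing notes; RMA corrects background, normalises between arrays and summarises probes. The sources used here do not state whether the arrays were normalised as one batch. RMA makes a difference relative to the other genes on the array. Values ran from 2.03 to 13.8, array data have no read depth, and 3 arrays a group limit the precision.

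Groups came from the sample titles. One mean per group was fitted to 45037 probe sets (64 control probe sets left out) with limma 3.58.1 in R 4.3.3, with 8 residual and 4.50 prior degrees of freedom, and 5 contrasts were tested with Benjamini-Hochberg adjustment over all probe sets (threshold 0.05). Intervals are 95% from the moderated fit, unadjusted. The fit was tested on simulated data. The probe table pairs 34945 probe sets with 1 gene, 932 with several and 9160 with none, and the identifiers of all 28 measured members were found in RefSeq. Members, gene lists and tests were chosen with earlier results of these data known. All members are named, with the value in every mouse for the 3 largest differences in each contrast and for Hmgcs1, Srebf2, Stard4, Abca1, Cyp46a1 and Apoe, and the pathway genes named are the 3 with the smallest p in each contrast. Marker lists cover projection neurons, oligodendrocytes, astrocytes, microglia, vascular cells, choroid plexus, cortical neurons and thalamic neurons. Vascular markers had a mean of 6.71 to 6.94 in old Q92 and 6.97 to 7.08 in old wild-type mice, thalamic markers of 5.77 to 7.66 and 6.08 to 7.46, and choroid plexus markers were highest in Q92_3m_439 and wt_18m_12 (1.80 and 1.50 relative to the 12 mice). Motifs were searched in 32851 promoter windows of RefSeq genes. The alternatives were quantile normalisation, a common median, a filter at the 40th percentile, sex, array weights, a robust prior with an intensity trend, age in days as a block, a fit to the arrays compared, the mean of all probe sets, 1 probe set per gene, and leaving out each array. Leaving out wt_3m_467 and Q92_18m_66 together, and covariates for cortical neuron and oligodendrocyte markers, were chosen after seeing the data.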

Additional observations from a re-analysis of the deposited data

How the results depend on the processing

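No paired analysis was possible because the mice of different groups share no animal number. In each of the 25 alternatives that gave a value, 0 of the 28 members passed in limma in any comparison, and the smallest adjusted p of a member was 0.0685, for Abca1 with age in wild type. The interaction could not be restricted to the arrays compared, and the age contrasts were not run with age in days as a block. The number of synthesis enzymes with a higher mean in Q92 mice was 12 to 15 at 18 months and 7 to 12 at 3 months, and with age it was 7 to 13 in wild type and 12 to 16 in Q92. For the interaction of genotype and age it was 10 to 14 when single arrays were left out, 8 with the cortical marker covariate and 6 with the oligodendrocyte covariate. Leaving out single arrays put the median log2 difference of the enzymes at 0.029 to 0.091 at 18 months (lowest without Q92_18m_11), at -0.016 to 0.033 at 3 months, at 0.0080 to 0.091 for the interaction (lowest without Q92_18m_25, and 0.0100 without Q92_18m_11), at -0.0059 to 0.058 with age in wild type and at 0.051 to 0.12 with age in Q92 (highest without Q92_3m_440, and 0.11 without Q92_18m_66). With age in days as a block the median was 0.18 at 18 months and 0.15 for the interaction. In that fit Q92_18m_11 was the only old Q92 mouse with an age shared by wild-type mice. Without wt_3m_467 and Q92_18m_66 together it was 0.12 for the interaction and 0.11 with age in Q92. With the cortical covariate the interaction was -0.015 and with the oligodendrocyte covariate -0.044. The cause of these shifts was not tested. Of 3416 recomputed member values, 231 had another sign, and the largest main difference among them was that of Sc5d with age in Q92, from -0.39 to 0.018 with the mean of all probe sets. Lss with age in wild type went from 0.33 to -0.048 with that mean, the dimmer probe sets having the opposite sign.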
